A study of Mus musculus with 89 samples.

Results

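The cytosolic ribosomal protein genes described here are the 83 genes of the RNA-seq count table whose symbols are Rpl or Rps followed by a number with at most 1 letter (a, l or x), or are Rplp0, Rplp1, Rplp2 or Rpsa. They were chosen by name alone from 26276 rows with a gene symbol, and 51 belong to the large and 32 to the small subunit. RefSeq lists 81 of them as protein coding, Rpl6l as a pseudogene and Rps4l as a transcribed pseudogene. They lie on 19 chromosomes, with 14 on chromosome 7 and 4 on the X chromosome (Rpl10, Rpl39, Rps4x and Rpl36a). The libraries came from V6.5 mouse embryonic stem (ES) cells, grown in 2i medium with LIF, which holds such cells in an undifferentiated state. In every library the cells carried an FKBP-V tag on H2afz, the gene of the histone variant H2A.Z.1. The tag lets a small molecule, dTAG, direct the tagged protein to degradation. There were 3 control libraries and 3 libraries of dTAG-treated cells. The labels give no treatment time for these libraries. They also do not say whether the libraries came from separate cultures or how many clones carried the tag, so p-values here rest on the spread between the samples alone, and that spread may be technical.

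A ribosome is built of a large and a small subunit, each made of ribosomal RNA and proteins that are needed in nearly equal numbers. Messenger RNAs of ribosomal proteins are among the most abundant in growing cells. Most of them start with a C followed by a run of pyrimidines, the 5′ terminal oligopyrimidine or TOP motif, through which the kinase mTOR and the RNA-binding protein LARP1 control their translation. Several members have a close copy whose symbol ends in l, and some of these copies are used mainly in muscle or in the testis.

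Promoter windows from RefSeq (GRCm38.p6) were available for 61 of the 83 members, and the sequences below show the region around an annotated start in some of them. A run of pyrimidines there need not begin at the start base, so it is not in itself a TOP motif. Each is 30 bases, from 15 before to 15 after the first start listed for the gene, 5′ to 3′ on the strand of the gene, with the longest run of pyrimidines in capitals. The 6 members with the longest runs were:
Rpl7a, chr2:26910792-26910821, plus strand: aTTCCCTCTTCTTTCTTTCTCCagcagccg
Rpl27a, chr7:109519180-109519209, plus strand: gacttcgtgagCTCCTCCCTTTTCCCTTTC
Rpl35, chr2:39005117-39005146, minus strand: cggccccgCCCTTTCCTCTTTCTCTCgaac
Rpl15, chr14:18270972-18271001, minus strand: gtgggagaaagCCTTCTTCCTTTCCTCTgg
Rpl14, chr9:120571502-120571531, plus strand: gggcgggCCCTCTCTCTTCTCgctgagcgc
Rpl13a, chr7:45128731-45128760, minus strand: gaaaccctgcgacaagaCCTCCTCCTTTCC

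For Rpl10, Rpl39 and Rps27 a window was available for both the member and its l copy, and these start regions are set side by side here:
Rpl10, chrX:74270801-74270830, plus strand: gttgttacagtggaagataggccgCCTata
Rpl10l, chr12:66284387-66284416, minus strand: tttggCCTCCattttgcggctggcggtggg
Rpl39, chrX:37085208-37085237, minus strand: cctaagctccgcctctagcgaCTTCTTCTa
Rpl39l, chr16:10170213-10170242, plus strand: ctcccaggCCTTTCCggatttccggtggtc
Rps27, chr3:90213634-90213663, minus strand: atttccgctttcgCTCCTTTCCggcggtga
Rps27l, chr9:66946071-66946100, plus strand: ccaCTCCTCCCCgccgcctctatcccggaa

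Within these windows the longest run was 21 bases in Rpl7a, 19 in Rpl27a, 18 in Rpl35, 17 in Rpl15, 14 in Rpl14 and 13 in Rpl13a. The runs of Rpl27a and Rpl13a reach the last base of the window, so 19 and 13 are minimum lengths. Among the pairs it was 3 bases in Rpl10 and 5 in Rpl10l, 8 in Rpl39 and 7 in Rpl39l, and 9 in both Rps27 and Rps27l. The start used lies 122 bases from the outer end of the gene for Rpl7a, 31 for Rpl39l and 1462 for Rps27l, so other annotated starts of these 3 genes are not shown. A run of at least 8 pyrimidines stood in 25 of 61 member windows (41%) and in 11.7% of the 17492 protein-coding windows of the same length. A run of at least 10 stood in 17 members (27.9%), against 5.06% of all windows. The letters CTTTC, which can lie inside such a run, stood on the strand of the gene in 16 members (26.2%), against 3.66% of all windows. Over the full 300 bases, CCGGAAG on either strand, which contains the core letters of ETS family sites, was found in 24 members (39.3%) against 11.9% of all windows. TATAAA on either strand was found in 6 members (9.84%) against 13.3%. These are letter matches near an annotated start, and no factor was measured at them here.

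The libraries differed in depth and kind. The controls and dTAG replicate 1 held 12907095 to 15652795 counts in rows with a symbol, dTAG replicate 2 held 2131648 and dTAG replicate 3 held 1812405. Olfactory and vomeronasal receptor genes, 1462 genes that ES cells do not use, had a count in 10.9% to 18.2% of cases in the controls and in 23.5%, 71.5% and 97.0% of cases in dTAG replicates 1, 2 and 3. The 8 ES cell markers were all detected in every library, with summed levels of 2334 to 2585 CPM (counts per 1000000 counts in rows with a symbol) in the controls and dTAG replicate 1 but 1537 and 470 in the 2 shallow libraries. Summed over 10 fibroblast markers, the level was 25.9 to 37.6 CPM in the controls and dTAG replicate 1, with 3 or 4 markers at 0, and 141 and 459 CPM in dTAG replicates 2 and 3, with 0 markers at 0. H2afz itself stood at 78.8, 81.9 and 95.7 CPM across controls and 107, 56.3 and 35.9 CPM across dTAG replicates 1, 2 and 3. Since dTAG removes the protein and not its message, these levels do not check the labels. Because dTAG replicates 2 and 3 stand apart in this way, each result is given with and without them. What part these features have in the results was not tested.

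The 83 genes took 3.76%, 3.67% and 3.78% of the counts in the 3 controls. With dTAG they took 3.93% in replicate 1 (95% Wilson interval 3.92% to 3.94%, counting error only), 2.03% in replicate 2 (2.01% to 2.05%) and 0.204% in replicate 3 (0.197% to 0.210%). Thus dTAG replicate 1 lay above every control, at 105.2% of the control mean, while dTAG replicates 2 and 3 lay at 54.2% and 5.45% of it. The control mean was 3.74% ± 0.0588 (SD, n = 3) and the dTAG mean was 2.05% ± 1.86 (SD, n = 3). The difference of -1.68 percentage points did not pass an exact two-sided permutation test (p = 0.4, Benjamini-Hochberg adjusted p = 0.6 over 3 such tests), for which 0.1 is the smallest p that 3 against 3 libraries allow. In bulk RNA such a share cannot tell fewer cells of a type from less RNA per cell. The ribosomal RNA precursor Rn45s took 11.4% to 16.2% of the counts in the controls and in dTAG replicates 1 and 2, and 0.604% in dTAG replicate 3. Left out together with the mitochondrial genome, it moved the members' share to 4.61%, 4.77% and 4.82% in the controls and to 4.85%, 2.49% and 0.205% with dTAG.

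The ratio of large to small subunit counts lay between 1.76 and 2.12 in all 6 libraries. Large subunit genes took 2.49%, 2.41% and 2.49% of the counts in the controls and 2.59%, 1.38% and 0.130% in dTAG replicates 1, 2 and 3. Small subunit genes took 1.27%, 1.26% and 1.29% in the controls and 1.34%, 0.649% and 0.0738% with dTAG. Their ratio was 1.96, 1.91 and 1.94 in the controls, with dTAG replicate 1 among them at 1.93, dTAG replicate 2 above them at 2.12 and dTAG replicate 3 below them at 1.76. On the log2 scale the groups differed by -0.0026 (exact two-sided permutation p = 0.9, adjusted p = 0.9). Its sign turned with the choice of summary and with single libraries: it was 0.0717 from the median CPM of each subunit, 0.00767 without control replicate 1 and 0.0646 without dTAG replicate 3.

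**Figure D1:**
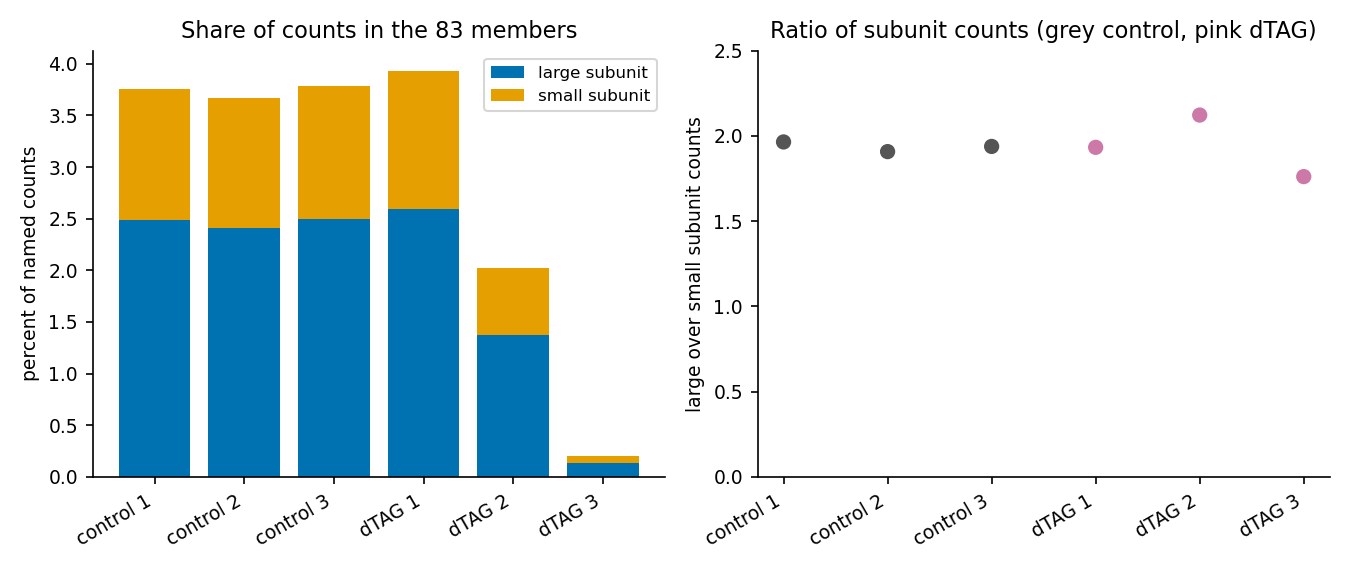
Left, bars of the percent of counts in rows with a symbol that fell in large (blue) and small (orange) subunit genes in each of the 6 libraries; right, points for the ratio of large to small subunit counts in each library. The share is 3.67% to 3.93% in the controls and dTAG replicate 1 and 2.03% and 0.204% in the other dTAG libraries, while the ratio stays between 1.76 and 2.12.

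In the controls the members ranged from 0.511 to 1835 CPM, but most lay close together. The median of their control means was 353 CPM, with quartiles of 217 and 580 CPM; 72 of 83 lay between 100 and 1000 CPM, 7 at or above 1000, 3 between 10 and 100, and 1 below 10. Transcript lengths were not at hand, so an order of CPM is not an order of transcript levels. Their spread between controls was narrow: the coefficient of variation had a median of 4.23% and was under 10% for 78 of 83 members, against a median of 6.88% over the 1522 genes of at least 100 CPM. Those genes were not matched to the members on level, and the spread differed with level. Over genes of at least 10 CPM its median was 11.9%. The order of the 83 genes was nearly the same in the controls and dTAG replicate 1, with Spearman's rho across genes of 0.994 to 0.997. Against the controls rho was 0.970 to 0.975 in dTAG replicate 2 and 0.549 to 0.565 in replicate 3. These are descriptions across genes of the same libraries, and genes are not independent replicates.

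Among large subunit genes Rpl4, a core protein of the subunit, had the highest CPM in the controls and in dTAG replicates 1 and 2 and was level with Rpl3, at 116 counts each, in dTAG replicate 3. Its values were 1835, 1646 and 1688 in the controls and 1763, 1170 and 64.0 with dTAG (replicates 1, 2 and 3, an order kept in what follows). Its level in dTAG replicate 1 lay among the controls, and the others lay below them. The stalk that recruits translation factors is formed by Rplp0, Rplp1 and Rplp2. Rplp0 stood at 1065, 951 and 965 CPM in the controls and at 1010, 562 and 50.8 CPM with dTAG. Rplp1 stood at 1527, 1540 and 1557 CPM in the controls and 1568, 718 and 38.6 CPM with dTAG, and Rplp2 at 465, 474 and 454 CPM and 479, 202 and 23.7 CPM. For Rplp1 and Rplp2 dTAG replicate 1 was just above all controls, and for Rplp0 it was between them. Rpl5 and Rpl11 join the 5S ribosomal RNA in a particle that can also bind the p53 regulator MDM2. Rpl5 stood at 1295, 1146 and 1194 CPM in the controls and 1262, 728 and 35.9 CPM with dTAG. Rpl11 stood at 213, 211 and 231 CPM in the controls and 257, 98.0 and 22.6 CPM with dTAG. Here Rpl5 overlapped the controls in dTAG replicate 1 and Rpl11 lay above them. Rpl13a and Rpl23a, also of the large subunit, stood at 1112 to 1217 and 742 to 755 CPM in the controls. They stood at 1228 and 808 CPM in dTAG replicate 1, above every control, and at 731 and 524 CPM in dTAG replicate 2.

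Of the small subunit genes, Rpsa, which encodes a protein also known as the laminin receptor precursor, had the highest CPM, at 1435, 1429 and 1458 in the controls and 1518, 945 and 54.6 with dTAG. Rps6, whose protein is phosphorylated by S6 kinase downstream of mTOR, stood at 766, 728 and 764 CPM in the controls and 811, 416 and 23.2 CPM with dTAG. For both genes dTAG replicate 1 lay above all controls and dTAG replicates 2 and 3 below them. Rps19, the gene most often mutated in Diamond-Blackfan anaemia, stood at 218, 213 and 230 CPM in the controls and 229, 117 and 26.5 CPM with dTAG, so dTAG replicate 1 lay within the control range. Rps27a, translated as a fusion with ubiquitin, stood at 381, 376 and 409 CPM in the controls and 428, 175 and 12.7 CPM with dTAG. Rps23, a protein of the decoding centre, stood at 806 to 838 CPM in the controls and 864, 488 and 21.5 CPM with dTAG, and Rps24 at 692 to 752 CPM and 789, 376 and 19.9 CPM. In all 3 of these genes dTAG replicate 1 was the highest of the 6 libraries.

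**Figure D2:**
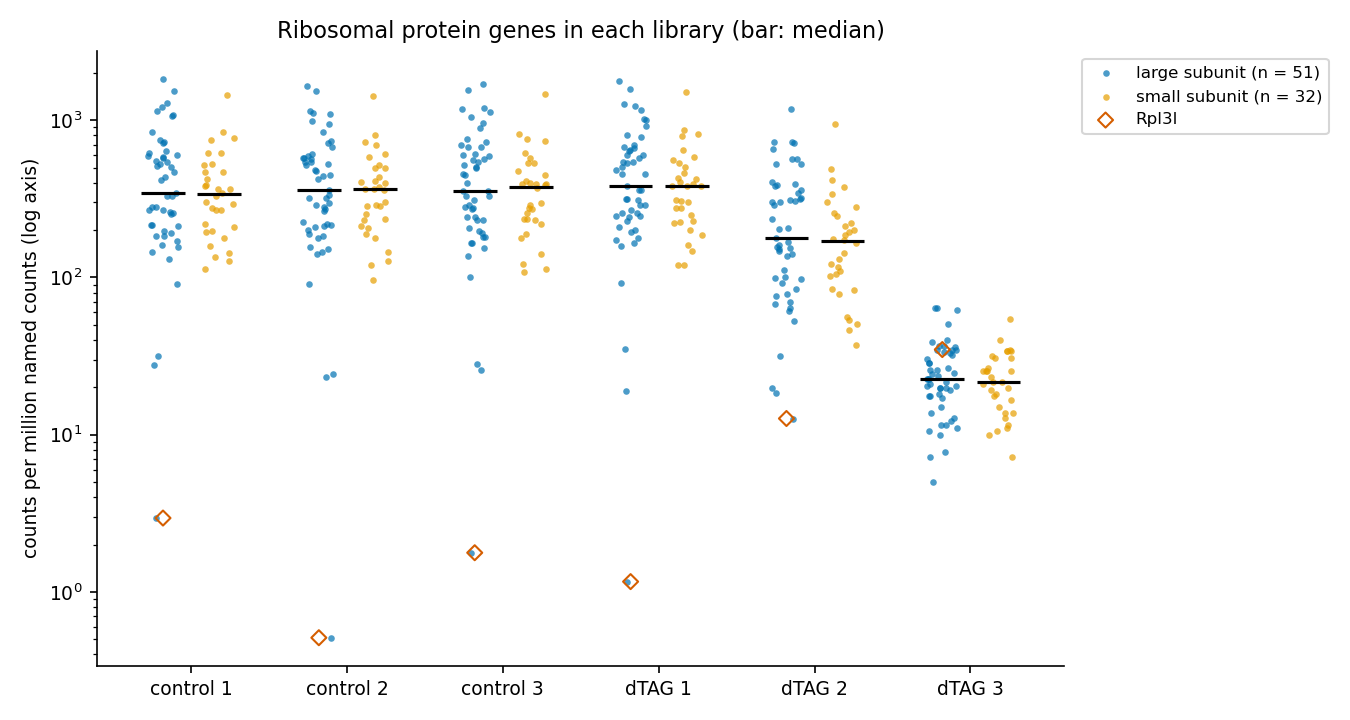
Each point is 1 of the 83 genes, in CPM on a log axis, for the large (blue, n = 51) and small (orange, n = 32) subunit in each of the 6 libraries; black bars are medians and diamonds mark Rpl3l. Points of the controls and dTAG replicate 1 cover the same range, those of dTAG replicate 2 lie lower, and those of dTAG replicate 3 lie between 4.97 and 64.0 CPM with Rpl3l among them.

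Setting dTAG replicate 1 against the 3 controls asks what the treated library closest to the controls in depth shows. Before scaling, 56 of 83 members (67.5%; 37 large and 19 small) lay above every control in CPM, where 33.8% of all 18143 genes tested and 33.2% of genes of at least 100 CPM did so. Only 3 members, Rpl39l and Rps4x among them, lay below every control, where 17% of all genes and 12.5% of genes of at least 100 CPM did. The median log2 ratio of CPM + 1 to the control mean was 0.09 over the members, from -0.47 for Rpl39l to 0.38 for Rpl10l, and 0.05 over all genes of at least 100 CPM. With TMM scaling, which sets libraries level by the bulk of their genes, 15 members lay above every control and 12 below, against 27.2% and 23.5% of all genes. The number of members above every control therefore depended on the scaling. By edgeR's quasi-likelihood test 0 of the 83 members were higher and 0 lower at a Benjamini-Hochberg adjusted p under 0.05, where 0.0606% of all genes tested were called higher and 0.0276% lower. At an unadjusted p under 0.05 there was 1 member, Rpl39l, against 5.74% of all genes. The median log2 fold change was 0.01 over the members and -0.02 over all genes tested. With a lone dTAG library, this fit takes its spread from the controls.

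Rpl39l, the copy of the peptide exit tunnel protein Rpl39 that is used in the testis, had the lowest fold change of the named members other than the scarce Rpl3l. It stood at 27.6, 24.4 and 28.0 CPM in the controls and 19.0 CPM in dTAG replicate 1, a log2 fold change of -0.57 ± 0.28 (SE) with an adjusted p of 0.858 by edgeR. Rpl37 stood at 1148, 990 and 1044 CPM in the controls and 1014 in dTAG replicate 1, within their range (log2 fold change -0.15 ± 0.08, SE). Rps4x, the X-linked gene of a small subunit protein, stood at 420, 438 and 448 CPM in the controls and 420 in dTAG replicate 1 (-0.14 ± 0.10, SE). At the other end, Rpl10l stood at 31.5, 23.1 and 25.6 CPM in the controls and 35.2 in dTAG replicate 1 (0.32 ± 0.25, SE; edgeR adjusted p = 0.973). Rpl24, on the face of the large subunit that meets the small one, stood at 191, 179 and 192 CPM in the controls and 228 in dTAG replicate 1 (0.20 ± 0.12, SE). X-linked Rpl36a stood at 131, 140 and 137 CPM in the controls and 165 in dTAG replicate 1 (0.19 ± 0.14, SE). None of these passed the test, and the members with the extreme ratios in this library were picked by those ratios, so their sizes are a description.

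**Figure D3:**
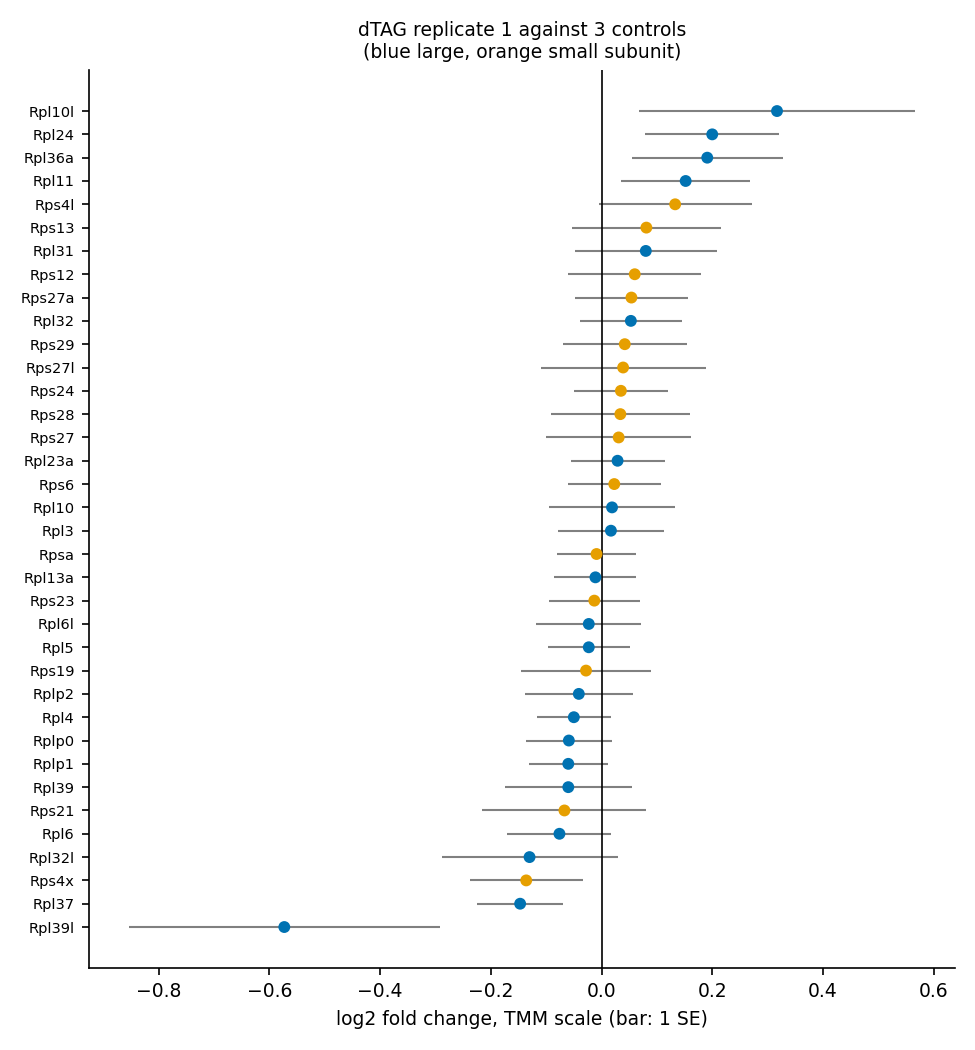
Log2 fold change of dTAG replicate 1 against the 3 controls for 36 named members on the TMM scale, with bars of 1 standard error, for large (blue) and small (orange) subunit genes. Rpl39l lies lowest at -0.57 and Rpl10l highest at 0.32, and 29 of the 36 lie within 1 standard error of 0; Rpl3l is not drawn because of its few counts.

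With all 6 libraries, edgeR's quasi-likelihood test called 0 of 83 members higher and 0 lower, and 0% of the 18116 genes tested passed in either direction. DESeq2 on the same libraries also called 0 members, but 3206 of all genes. At an unadjusted p under 0.05 there was 1 member against 23.2% of all genes. This was again Rpl39l, with a log2 fold change of -1.22 ± 0.51 (SE) and an adjusted p of 0.196 by edgeR. With library totals in place of TMM scaling, the fold change of Rpl39l was -0.67 (edgeR adjusted p = 0.253). Its levels of 18.3 and 12.7 CPM in dTAG replicates 2 and 3 join that of replicate 1 below every control. The median log2 fold change was -1.12 over the members, -1.11 over the large and -1.14 over the small subunit, against 0.16 over all genes tested. The fold change of Rpl4, -1.07, had a standard error of 1.68. By CPM 3 members (Rpl39l and Rps4x among them) had all 3 dTAG libraries below every control, 3.61% of the members against 3.22% of all genes, and 0 had all 3 above, against 23.9%. Comparisons with all dTAG libraries and with dTAG replicate 1 share the control libraries.

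Without dTAG replicate 1 the same test, now of dTAG replicates 2 and 3 against the 3 controls, called 30 members lower and 1 higher. Of all genes, 19.8% were called lower and 40% higher. Among the 30, Rpl39 had the highest control mean, at 309.5 CPM, so no member above that level was called. Some members below it were not called either. The more abundant Rpl26 and Rpl4 were not called, although their log2 values were -2.59 and -2.40. Their standard errors were 1.90 and 2.20, against 0.857 for Rps28. A member that was not called thus need not have stayed level. What part level has in the calls was not tested. The 5 members called lower with the smallest p were Rpl39l, Rpl10l, Rps28, Rps21 and Rpl31, and Rps12 had the lowest ratio of all members in dTAG replicate 2. Rps28, of the small subunit, stood at 179, 188 and 190 CPM in the controls against 46.0 and 34.2 CPM in dTAG replicates 2 and 3 (log2 fold change -3.46, edgeR adjusted p = 0.00583). Rps21 stood at 113, 127 and 113 CPM in the controls and 37.1 and 10.5 CPM in those libraries (-3.38, edgeR adjusted p = 0.00715). Rpl31, at the exit of the peptide tunnel, stood at 171, 189 and 197 CPM in the controls and 53 and 30.3 CPM in those libraries (-3.35, edgeR adjusted p = 0.00813). Rps12 stood at 209, 236 and 234 CPM in the controls and 55.8 and 13.8 CPM in those libraries (-3.75, edgeR adjusted p = 0.0120). These fold changes are on the TMM scale and differ from log2 ratios of CPM + 1 to the control mean. In dTAG replicates 2 and 3 that plain ratio was -2.0 and -2.4 for Rps28 and -1.8 and -2.6 for Rpl31. It was -1.6 and -3.4 for Rps21 and -2.0 and -3.9 for Rps12. The copies Rpl39l (-2.07, edgeR adjusted p = 0.00318) and Rpl10l (-2.03, edgeR adjusted p = 0.00477) were also called lower, and Rpl3l was the 1 member called higher (2.21, edgeR adjusted p = 0.0225). By the plain ratio Rpl39l lay at -0.5 and -1.0 and Rpl10l at -0.4 and -1.2 in dTAG replicates 2 and 3. The medians over the members were lower, at -0.94 and -4.08, so these 2 copies fell less than most members. In dTAG replicate 1, Rps28, Rps21, Rpl31 and Rps12 stood at 202, 119, 209 and 250 CPM, so 3 of them were above every control there and Rps21 lay within the control range.

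Member by member, dTAG replicate 2 lay below every control for 82 of 83 genes, Rpl3l being the exception, and so did dTAG replicate 3, against 22.4% of all genes tested in each. In dTAG replicate 3, 1 member, Rpl3l, lay above every control, against 72.3% of all genes. Both libraries were low together for 82 members, against 17.8% of all genes. Abundant genes as a whole were lower too: among genes of at least 100 CPM, 86.7% and 93.8% lay below every control in dTAG replicates 2 and 3, shares that stand nearer to the members' 98.8%. The median log2 ratio of CPM + 1 to the control mean was -0.94 in dTAG replicate 2 (quartiles -1.17 and -0.74), against -0.47 over all genes of at least 100 CPM. It was -4.08 in dTAG replicate 3, against -2.18 over those genes. Of the 83 members, 81 and 79 lay below that median in the respective library, and 23 did in dTAG replicate 1. The comparison genes have a lower bound of 100 CPM and were not matched on level to the members, whose median control mean was 353 CPM. What part level has in these differences was not tested.

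The ratios in dTAG replicate 2 were uneven among members. Large subunit genes had a median log2 ratio of -0.88 and small subunit genes of -1.06. The lowest ratio was that of Rps12, at -2.0, and low ratios were also found in Rps28 and Rps29, which stood at 77.9 CPM against 266 to 285 CPM in the controls. By contrast, Rpl4, Rpsa and Rpl23a kept 1170, 945 and 524 CPM. In dTAG replicate 3 the subunit medians were -4.10 and -3.87, and the members' levels had drawn together into a range of 4.97 to 64.0 CPM, from 9 to 116 counts. The gene with the lowest ratio there was Rpl26 (named after its values were seen), at -5.41, from 1074, 1090 and 1125 CPM in the controls to 24.8 CPM. Rpl26 held rank 36 among the members in that library, Rpl37 rank 30 and Rps23 rank 43, although all 3 were among the more abundant members in the controls. The 10 most abundant members held 31.5% to 32.7% of the members' counts in the controls and, with dTAG, 31.3%, 35.0% and 20.4%. The 25 members with a run of at least 8 pyrimidines near the start had medians of 0.11, -1.05 and -4.0 in dTAG replicates 1, 2 and 3. The 36 with a shorter run had medians of 0.08, -0.90 and -4.04.

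**Figure D4:**
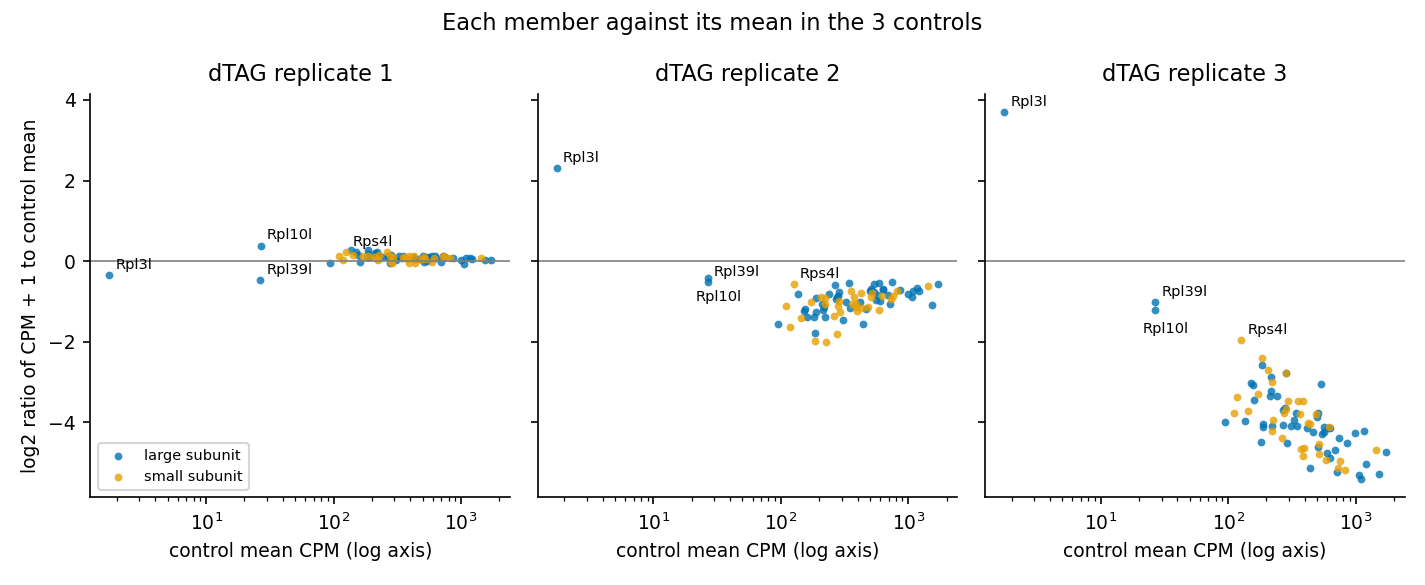
For each dTAG library, the log2 ratio of CPM + 1 to the mean of the 3 controls (y axis) against the control mean CPM (log x axis), 1 point per gene, blue for the large and orange for the small subunit. Points of dTAG replicate 1 lie near 0 with a median of 0.09, those of dTAG replicate 2 have a median of -0.94, and those of dTAG replicate 3 have a median of -4.08 and lie lower for genes of higher control level, while Rpl3l lies above 0 in dTAG replicates 2 and 3.

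The members of lowest level were copies. Rpl3l replaces the peptidyl transferase centre protein Rpl3 in skeletal and heart muscle. It had 42, 8 and 25 counts in the controls and 15, 27 and 63 counts with dTAG, or 2.95, 0.511 and 1.77 CPM against 1.16, 12.7 and 34.8 CPM. Thus it was the member highest above its controls in dTAG replicates 2 and 3, the libraries in which receptor genes were detected most often, and lay within the control range in dTAG replicate 1. With all 6 libraries its log2 fold change was 1.98 ± 0.99 (SE; edgeR adjusted p = 0.280). Relative to Rpl3, its counts were 0.562%, 0.0977% and 0.317% in the controls and 0.202%, 3.52% and 54.3% with dTAG. These percentages compare counts and are not corrected for the lengths of the genes.

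Rpl10l is a retrogene copy of X-linked Rpl10 that serves in male meiosis, when the X chromosome is silent, and Rpl39l is likewise used in spermatogenesis. Rpl10l had 12.3%, 8.26% and 9.41% of the counts of Rpl10 in the controls and 12.1%, 14% and 55.6% in dTAG replicates 1, 2 and 3. Rpl39l had 9.82%, 7.62% and 8.56% of those of Rpl39 in the controls and 6.02%, 16.4% and 74.2% with dTAG. So both ratios were above every control in dTAG replicates 2 and 3, while dTAG replicate 1 was within the control range for Rpl10l and below it for Rpl39l. In dTAG replicate 3 they rest on few counts: 20 for Rpl10l against 36 for Rpl10, and 23 for Rpl39l against 31 for Rpl39. The levels of the members as a whole had drawn together in that library, and whether these pairs differ from other pairs of like levels was not tested. Rps4l, a transcribed pseudogene related to Rps4x, had 32.2%, 27.6% and 27.2% of the counts of Rps4x in the controls and 34.8%, 43.0% and 124% with dTAG, all 3 above the controls. Rps27l, known as a p53 target, stood at 126, 96.1 and 108 CPM in the controls and 120, 50.7 and 7.17 CPM with dTAG. Its ratio to Rps27, 79.5%, 54.3% and 61.0% in the controls, was 64.5%, 60.7% and 43.3% with dTAG, below the controls in the last alone. Rpl32l had 14.7% to 15.4% of the counts of Rpl32 in the controls and 13.2%, 8.28% and 24.3% with dTAG.

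Rpl6l, listed as a pseudogene, had 94.9%, 96.0% and 91.0% of the counts of Rpl6 in the controls and 97.5%, 96.6% and 75.0% with dTAG. How reads that match both a gene and a near-identical copy were counted is not given in the sources used here, so the levels of Rpl6l, Rps4l and other copies, and of their parent genes, are uncertain. Summed over the 5 pairs of Rpl3l, Rpl10l, Rpl39l, Rps27l and Rps4l, the log2 ratio of copies to counterparts was -2.34, -2.71 and -2.64 in the controls and -2.47, -2.26 and -0.56 with dTAG. The difference of 0.80 did not pass an exact two-sided permutation test (p = 0.2, adjusted p = 0.6). It was 0.197 without dTAG replicate 3, 0.386 over all 7 pairs (exact permutation p = 0.3; Rpl6l and Rpl32l were added after the table was seen) and 0.092 with dTAG replicate 1 alone.

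**Figure D5:**
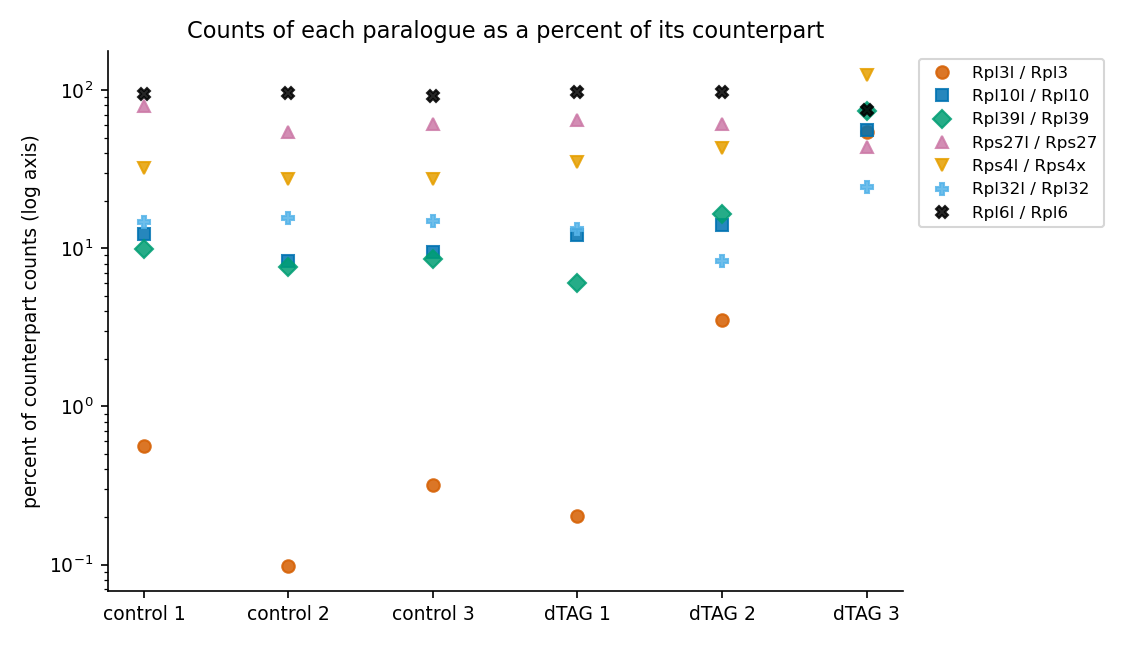
Counts of each copy as a percent of the counts of its counterpart (log axis) in each library, 1 symbol per pair, not corrected for gene length. Rpl3l lies at 0.0977% to 0.562% of Rpl3 in the controls and dTAG replicate 1 and at 54.3% in dTAG replicate 3, where 6 of the 7 pairs lie between 43.3% and 124%.

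Other genes of the translation machinery were set beside the members. In each of the lists below 0 genes were called by edgeR with all 6 libraries or with dTAG replicate 1 alone, and 0 to 4 genes a list had an unadjusted p under 0.05 in each. DESeq2 also called 0 of them. Differences between lists were not tested. Of 9 ribosomal proteins with names outside the rule, 7 were in the table, and they took 58.8% and 9.62% of their control share in dTAG replicates 2 and 3 (members 54.2% and 5.45%). Among them Rps3a1 stood at 987, 908 and 1014 CPM in the controls and 999, 568 and 33.1 CPM with dTAG. The 19 translation factors and related genes with TOP messages had 64.3% and 7.54% of their control share in dTAG replicates 2 and 3, and 102% in dTAG replicate 1. Eef1a1, the factor that brings transfer RNA to the ribosome, stood at 3069, 2746 and 2967 CPM in the controls and 3010, 1808 and 99.3 CPM with dTAG, lying within the controls in the first and below them in the others.

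Mitochondrial ribosomal proteins, which form the separate ribosome of that organelle, stood nearer to their control share. Their 78 genes took 0.237%, 0.212% and 0.216% of the counts in the controls and 0.228%, 0.178% and 0.178% with dTAG, 80.4% and 80.5% of the control mean in dTAG replicates 2 and 3. They are less abundant than the cytosolic set, with a median of 22.4 CPM in the controls against 353 CPM, so the 2 sets are not matched on level. In dTAG replicate 3, 26 of the 78 lay above every control and 45 below, against 72.3% and 22.4% of all genes tested. The median log2 fold change with all libraries was -0.75 for them, -1.05 for the TOP translation factors and -1.12 for the members. The 34 ribosomal protein pseudogenes in the table with symbols ending in -ps took 0.707%, 0.722% and 0.751% of the counts in the controls and 0.791%, 0.357% and 0.0319% with dTAG, or 109%, 49.1% and 4.39% of the control mean, which is near the values of the members. Their reads may be shared with the members. The 12 regulators of TOP messages and mTOR did not lie to 1 side of the controls. Their median log2 fold change was -0.46 with all libraries, on the TMM scale. On plain CPM, the median log2 ratio of CPM + 1 to the control mean was -0.05, 0.11 and 0.48 in dTAG replicates 1, 2 and 3. These summaries, on different scales, differ in sign for dTAG replicates 2 and 3. In dTAG replicate 3, 7 of the 12 lay above every control and 5 below, against 72.3% and 22.4% of all genes tested. The most abundant, Larp1, stood at 228, 202 and 202 CPM in the controls and 191, 174 and 112 CPM with dTAG, and Eif4ebp1, an inhibitor of cap-dependent translation, at 199, 199 and 201 CPM and 188, 114 and 26.5 CPM. These were the 2 genes of the list with all dTAG libraries below the controls, where 3.22% of all genes tested did so. Rptor, a subunit of the mTOR complex that controls TOP messages, was the 1 gene with all of them above (named after its values were seen), at 41.1, 42.7 and 38.5 CPM in the controls and 52.5, 90.1 and 125 CPM with dTAG. Over all genes tested, 23.9% had all dTAG libraries above every control. The 12 chaperones and importers of ribosomal proteins had median log2 fold changes of -0.69 with all libraries and -0.03 in dTAG replicate 1. Of these 12, 5 lay above every control and 5 below in dTAG replicate 3, against the same 72.3% and 22.4% of all genes. Ipo5, the most abundant of them, stood at 405 to 422 CPM in the controls and 420, 288 and 45.2 CPM with dTAG. Grwd1, a chaperone of Rpl3 (named after its values were seen), had all dTAG libraries above the controls, at 40.5, 41.3 and 57.4 CPM against 30.2 to 33.1 CPM. It was the 1 gene of its list to do so, against the same 23.9% of all genes. The 4 genes of the p53 response to ribosomal stress had medians of -0.82 and 0.07, and Mdm2 stood at 176, 154 and 168 CPM in the controls and 163, 123 and 50.2 CPM with dTAG.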

How the data were processed

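RNA-seq of mouse ES cells was analysed in 6 libraries (3 control, 3 dTAG), grouped by their titles; the series' other 83 samples are not used here. A table of 27179 rows, deposited by the authors, holds raw counts for each gene. The submitters' processing notes name build mm10 and, among tools, STAR 2.7.2b, featureCounts, limma and edgeR; what each did, whether strand was used and how reads with several matches were handled is not given in the sources used here. Per the labels' protocols, libraries were depleted of ribosomal RNA, although the kit named is one for messenger RNA. The 903 rows without a symbol (2.20% to 2.37% of the counts in the controls and 2.33%, 6.67% and 14.6% in dTAG replicates 1, 2 and 3) entered neither library sizes nor tests. CPM were computed per 1000000 counts in rows with a symbol, and log2 ratios with a pseudocount of 1 CPM. A count of 0 allows up to 3 counts, or 0.192 to 0.232 CPM in the controls and dTAG replicate 1 and 1.41 and 1.66 CPM in dTAG replicates 2 and 3.

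All genes were tested with edgeR 4.0.16 in R 4.3.3 (quasi-likelihood test, TMM, filterByExpr with a minimum count of 10 and a minimum total of 15, group alone as the design), with Benjamini-Hochberg adjustment over all genes tested; all 83 members passed the filter. The code was tested on simulated data. The standard error (SE) given with an edgeR fold change is its absolute log2 value divided by the square root of the quasi-likelihood F statistic. It was derived from the test in this way and is approximate. Sums and ratios were compared by exact two-sided permutation tests. The lowest chi-square per gene between any 2 libraries was 9.82, so no library was a copy of another. DESeq2 1.42.0, library totals, no filter, a replicate block, left-out libraries and other denominators were tried as alternatives. Named members were those of highest and lowest control level in each subunit, copies ending in l with their counterparts, those with extreme ratios in dTAG replicates 1 and 2, a set of role groups, and up to 5 members called per direction; of other lists, the most abundant genes were named. The members and lists were chosen with earlier results of these data known. Values of a few genes are not reported here.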

Additional observations from a re-analysis of the deposited data

Results flagged for a closer look

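Rows of the table without a gene symbol, which the main comparisons left out, held 6.67% of all counts in dTAG replicate 2 and 14.6% in dTAG replicate 3, above the 2.20%, 2.37% and 2.33% of the controls.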

How the results depend on the processing

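With all 6 libraries, 0 members were called under library totals, DESeq2, no filter on low counts and the replicate block, while the number of all genes called was 0 with edgeR and library totals, 3206 with DESeq2, 1398 without the filter and 13 with the block. Leaving out 1 library at a time, members called lower ranged from 0 to 30, members called higher from 0 to 1 and all genes called from 0 to 13222, the upper values all without dTAG replicate 1; the median log2 fold change of the members minus that of all genes ranged from -3.43 to -0.64 and was -1.28 with all. Deviations of same-numbered libraries from their group means correlated at 0.04, -0.03 and 0.04. Because dTAG replicates 2 and 3 stand apart from replicate 1, these correlations could not settle whether replicate numbers pair the samples. With the replicate block the median difference of members and all genes was -2.32. Library totals moved the median of all genes from 0.16 to 1.11 and the difference to -1.97. Over 10 alternatives for each of 37 named members, 352 of 370 values kept their direction and side of the threshold and 18 passed the threshold, all without dTAG replicate 1. In the main fit 0 members passed, so most values had only to stay on that side. The fit of dTAG replicate 1 alone was not among these alternatives. There the median log2 fold change over all 83 members was 0.01, against -1.12 with all 6 libraries, and some members had the other sign. The members' share difference ranged from -2.62 to -0.758 percentage points with 1 library left out and was 0.194 with dTAG replicate 1 alone. The log2 difference of large to small subunit counts, -0.0026, ranged from -0.0699 to 0.0646 with 1 library left out (0.00767 without control replicate 1) and was 0.0717 from subunit medians. The paralogue difference, 0.80, ranged from 0.197 to 1.16 with 1 library left out and was 1.20 as a median over pairs and 0.092 with dTAG replicate 1 alone. For dTAG replicate 1 against the controls 0 members were called under every alternative run, and the median of the members was 0.09 with library totals and -0.03 without control replicate 1; all genes called rose from 16 to 60 without control replicate 1. In dTAG replicate 3, 1 count is 0.552 CPM, which limits the members there, at 9 to 116 counts each.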
